A study of Mus musculus with 12 samples.

Results

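Genes that mark the primitive endoderm or the basement membrane its descendants secrete, 10 in all, were followed in mouse stem cells lacking Lin28a, Lin28b or both. They were 4 transcription factors (Gata4, Gata6, Sox17 and Foxa2), the endocytic adaptor Dab2, the collagen-binding glycoprotein Sparc, both chains of the common form of collagen IV (Col4a1 and Col4a2) and 2 laminin chains (Lama1 and Lamc1). Each was taken by its symbol from the deposited gene-level table. The table held 10 entries for these 10 genes among 30854 in all.

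The 12 arrays (Illumina Mouse WG-6 BeadChips, which read RNA with probes on beads) covered 4 groups of 3: loss of Lin28a and Lin28b together (double loss), Lin28a loss with Lin28b intact, Lin28b loss with Lin28a intact, and wild type. All cells were grown in KnockOut DMEM with 15% FBS and 1000 U/ml mLif. The tissue label reads embryonic stem cells, while the controls are described in the design text as iPS cells of wild type. Each genotype is represented by 1 named line, so line and genotype cannot be told apart. Nothing says that replicates were separate cultures, and p-values then measure only the spread between these samples. Lin28a loss and wild type shared 1 chip (chip 1), and double loss and Lin28b loss shared the other (chip 2). Across chips, the effects of chip and of genotype cannot be told apart. Lin28a loss against wild type and double loss against Lin28b loss lie within a chip. In the difference between these 2 effects an additive effect of chip cancels on the log2 scale. A chip effect of another form would not cancel.

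Lin28a and Lin28b are RNA-binding proteins that block maturation of the let-7 microRNA family. Primitive endoderm is the blastocyst layer that faces the cavity. Gata6 marks it early, Sox17 and Gata4 follow, and Dab2 sorts receptors in its polarised cells. Its parietal descendants build a thick basement membrane of laminin, collagen IV, nidogen and perlecan, with Sparc among their most abundant secreted products. Pluripotent cells also make laminin and collagen IV, so these matrix genes are not exclusive to endoderm.

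Signals are given as normalized log2 intensities (background-corrected and quantile-normalized) or, where stated, as raw signals on the linear scale. A gene was called above background on an array at a detection p under 0.01, and a difference was called past the threshold at an adjusted p under 0.05 (limma, Benjamini-Hochberg over 9920 tested genes). Mean raw signal per array was 325 to 597, and 9377 to 10773 entries passed detection. In double loss (replicate 1), Lin28a loss (replicate 3) and wild type (replicate 1), the brightest array departed from its group in a shared direction across tested genes (r of 0.46 to 0.69 between their deviations). Without these 3 arrays, a choice made after seeing the data, no call among the 10 genes was lost or turned, and 4 differences gained a call: Col4a2 in Lin28b loss against wild type (0.57, adjusted p = 0.00337), in double loss against Lin28b loss (0.44, 0.0125) and in double loss against Lin28a loss (-0.50, 0.00787), and the Col4a1 interaction of both losses (-0.84, 0.0111). The Lin28a entry averaged 5.48 ± 0.17 in double loss, 5.66 ± 0.08 in Lin28a loss, 7.03 ± 0.17 in Lin28b loss, against 7.97 ± 0.10 in wild type (SD, n = 3 each). It fell by 2.48 in double loss, fell by 2.31 in Lin28a loss and fell by 0.94 in Lin28b loss against wild type. The Lin28a entry stayed above background on all 3 arrays of every group, those that lack Lin28a included. Lin28b was above background on no array, wild type included, so its loss could not be checked. All 11 pluripotency markers were above background on every array, with summed levels of 53611 to 58388 in double loss, 47290 to 50297 in Lin28a loss, 49913 to 50966 in Lin28b loss, against 52173 to 54471 in wild type. In Lin28a loss 3 of them fell against wild type and none rose, beside 18.4% and 18.3% of all tested genes (median -0.18, against -0.03 over all tested genes). Lin28b loss gave 1 rise and 1 fall (18.9% and 17.2% of all tested genes), and double loss 2 rises and 1 fall (18% and 19.1%). Lin28a loss against Lin28b loss gave 6 falls of these markers (28.1% of tested genes fell there). Their part in the results for the 10 genes was not tested.

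The 4 transcription factors and Dab2 were at or near background in every group. Gata4, Sox17 and Foxa2 were above background on none of the 12 arrays, Gata6 on 2 and Dab2 on 1, whereas Sparc, Col4a1, Col4a2, Lama1 and Lamc1 were above background on all 12. The genes above background on at least 1 array of a group numbered 5 in double loss, 6 in Lin28a loss, 5 in Lin28b loss, against 7 in wild type. The label primitive endoderm was thus not borne out by its transcription factors on these arrays. In bulk RNA, fewer cells of a type and less RNA per cell cannot be told apart.

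Gata4, a zinc-finger factor of visceral and parietal endoderm, had raw signals of 40.8 to 86.9 over the 12 arrays. The negative control beads averaged 42 to 61.2 on the same arrays. Sox17, an HMG-box factor of primitive and definitive endoderm, had raw signals of 40.2 to 65.2. Foxa2, a forkhead factor of visceral and definitive endoderm, lay between 36.4 and 54.8, with detection p-values of 0.666 to 0.972. Foxa2 was thus below the mean of the negative controls on every array in the plot of signal over negative controls.

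Gata6, the earliest of these factors in the embryo, had normalized levels of 4.90, 4.64 and 4.94 in double loss, 5.20, 4.94 and 5.36 in Lin28a loss, 4.91, 4.88 and 4.74 in Lin28b loss, and 5.50, 4.88 and 4.85 in wild type. The 2 arrays above background were Lin28a loss replicate 3 and wild type replicate 1, the brightest of their groups. The groups overlapped, except that all Lin28a-loss arrays lay above all Lin28b-loss arrays. Without the filter on dim genes, no comparison of Gata6 passed the threshold (the widest was -0.34 ± 0.17 in double loss minus Lin28a loss, adjusted p = 0.216).

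Dab2, which couples receptors of the LDL-receptor family to clathrin, had raw signals of 60.9, 49.5 and 47.9 in double loss, 73.7, 65.9 and 83.8 in Lin28a loss, 53.2, 55.8 and 52.8 in Lin28b loss, and 129.1, 79.5 and 87.9 in wild type. Wild-type replicate 3 was the array above background. At a detection p under 0.05 the gene passed on 11 of the 12. In normalized units Dab2 averaged 4.81 ± 0.12 in double loss, 5.09 ± 0.09 in Lin28a loss and 4.85 ± 0.08 in Lin28b loss, against 5.60 ± 0.16 in wild type (SD, n = 3 each). Every wild-type array lay above every loss array on this scale. Dab2 failed the filter and was not tested in the main fit. Without the filter on dim genes, Dab2 differed from wild type by -0.79 ± 0.09 in double loss (adjusted p = 0.000179) and by -0.51 ± 0.09 in Lin28a loss (0.00294). In Lin28b loss the difference was -0.75 ± 0.09 (0.000275). The interaction of both losses was 0.47 ± 0.12 (0.0285). No loss array was above background, and only 1 of the 3 wild-type arrays was. The size of the fall therefore rests on signals near background, and no minimum fold can be given.

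**Figure D1:**
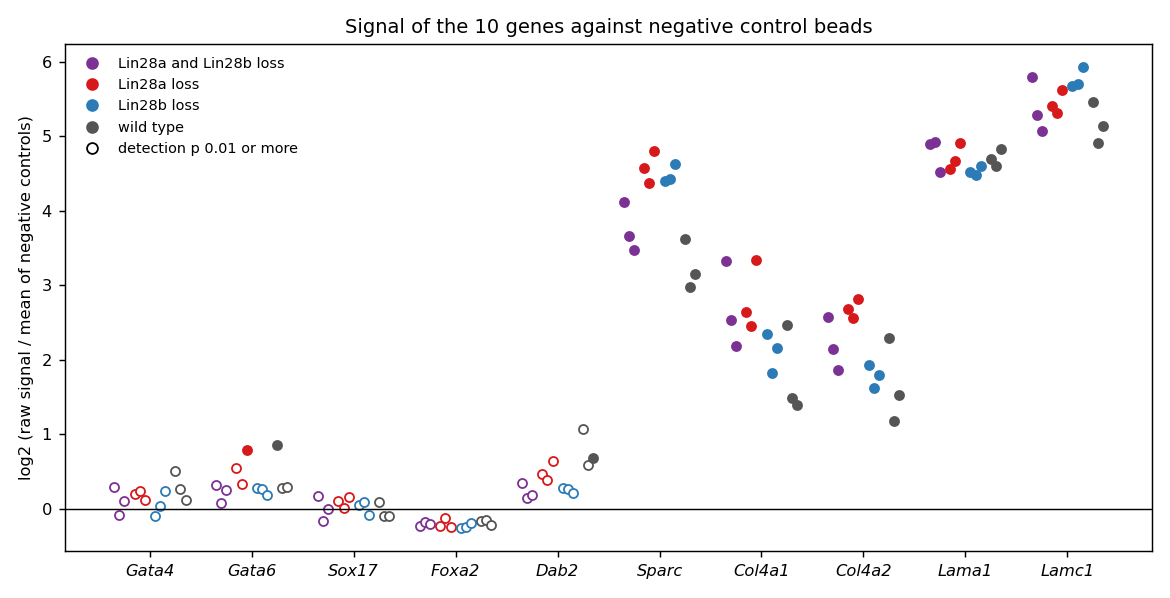
Raw signal of each gene over the mean of its array's negative control beads (log2; 0 marks equality), 1 point per array, coloured by group; open points have a detection p of 0.01 or more. Gata4, Gata6, Sox17, Foxa2 and Dab2 cluster near 0, whereas Sparc, the collagen IV chains and the laminin chains stand above background on all 12 arrays.

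Of the 10 genes, the 5 above background on all arrays passed the filter and were tested in all comparisons. In Lin28a loss, 4 of 5 rose against wild type and none fell, where 18.3% of all 9920 tested genes rose, 18.4% fell and 36.7% passed in either direction. In Lin28b loss, 3 of 5 rose and none fell, beside 18.9% of tested genes that rose, 17.2% that fell and 36.1% in either direction. In double loss, 3 of 5 rose and none fell, beside 18%, 19.1% and 37.1% of tested genes in the same order. The median log2 difference of the 5 was 1.18 for Lin28a loss, 0.60 for Lin28b loss and 0.60 for double loss, beside medians of -0.03, 0.00 and -0.01 over all tested genes. These 3 comparisons share their wild-type arrays. With arrays scaled to a common median in place of quantile normalization, no called direction turned, but the counts by limma were 0 in double loss (3 at an unadjusted p under 0.05), 2 in Lin28a loss (Sparc and Col4a2) and 1 in Lin28b loss (Sparc).

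Sparc, a secreted glycoprotein that binds collagen IV and calcium, was raised in all 3 loss groups, most in the single losses. Normalized levels were 9.28, 9.29 and 9.34 in double loss, 10.21, 10.12 and 9.97 in Lin28a loss, 10.18, 10.24 and 10.24 in Lin28b loss, and 8.74, 8.69 and 8.68 in wild type. The single losses were highest, double loss intermediate and wild type lowest, with no overlap between these 3 levels. Sparc rose by 1.40 ± 0.08 in Lin28a loss (2.64-fold, adjusted p = 7.45e-08), by 1.52 ± 0.08 in Lin28b loss (2.87-fold, 4.16e-08) and by 0.60 ± 0.08 in double loss (1.52-fold, 0.000117) against wild type. With median scaling the double-loss difference was 0.49 (adjusted p = 0.124). The Lin28a-loss change exceeded in size those of 97.5% of tested genes.

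The single losses did not differ in Sparc beyond their error (-0.12 in Lin28a loss minus Lin28b loss, 95% interval -0.30 to 0.06, adjusted p = 0.249). Double loss differed from Lin28a loss by -0.80 ± 0.08 (adjusted p = 5.46e-06) and from Lin28b loss by -0.92 ± 0.08 (3.89e-06). Sparc was the 1 of 5 genes lower in double loss than in Lin28a loss, as were 27.5% of tested genes, and none was higher, as were 26.4% (54% in either direction). The sum of both single-loss changes would be 2.92, against the 0.60 measured in double loss.

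Within a chip, Lin28a loss moved Sparc in opposite directions. It rose by 1.40 with Lin28b intact and fell by 0.92 with Lin28b lost, a difference of -2.32 ± 0.12 (adjusted p = 2.30e-08). That difference was larger in size than for 99.1% of tested genes. It stayed between -2.39 and -2.12 under all 22 alternatives. The average effect of Lin28a loss with chip as a block was 0.24 ± 0.34 (adjusted p = 0.663), and it turned to -0.64 with array weights (0.0239). That fit held no interaction term, so the opposite effects on the chips entered its error (0.34, against 0.08 for each within-chip effect). Its p-value therefore does not measure the spread between replicates alone.

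Col4a1 and Col4a2, the chains of the collagen IV network, lie head to head on mouse chromosome 8 and share a bidirectional promoter, which is shown because both genes rose in Lin28a loss. The windows cover 250 bases before and 50 from the RefSeq start site (build GRCm38.p6), at chr8:11312777-11313076 on the minus strand for Col4a1 and chr8:11312555-11312854 on the plus strand for Col4a2. Capitals mark the 78 bases, chr8:11312777-11312854, that both windows hold, each read 5′ to 3′ on its gene's own strand. The start sites lie 21 bases apart, at 11312826 for Col4a1 and 11312805 for Col4a2, so the 2 genes overlap at their 5′ ends. The bases before each start site thus run into the other gene. The window of Sparc, at chr11:55420031-55420330 on the minus strand, is given for contrast and has no capitals.
Col4a1: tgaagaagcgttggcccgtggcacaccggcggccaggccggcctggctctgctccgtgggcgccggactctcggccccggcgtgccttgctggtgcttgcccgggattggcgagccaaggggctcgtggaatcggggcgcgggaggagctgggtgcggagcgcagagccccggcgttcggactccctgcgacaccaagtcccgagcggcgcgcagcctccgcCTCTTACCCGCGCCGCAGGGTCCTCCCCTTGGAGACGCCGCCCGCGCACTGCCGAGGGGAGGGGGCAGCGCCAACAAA
Col4a2: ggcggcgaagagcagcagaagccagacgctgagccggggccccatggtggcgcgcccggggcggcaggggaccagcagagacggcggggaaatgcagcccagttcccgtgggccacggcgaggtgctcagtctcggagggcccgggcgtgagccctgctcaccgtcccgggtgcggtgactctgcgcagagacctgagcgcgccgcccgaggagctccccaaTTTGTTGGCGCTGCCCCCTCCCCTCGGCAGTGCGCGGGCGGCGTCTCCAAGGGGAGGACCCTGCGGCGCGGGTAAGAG
Sparc: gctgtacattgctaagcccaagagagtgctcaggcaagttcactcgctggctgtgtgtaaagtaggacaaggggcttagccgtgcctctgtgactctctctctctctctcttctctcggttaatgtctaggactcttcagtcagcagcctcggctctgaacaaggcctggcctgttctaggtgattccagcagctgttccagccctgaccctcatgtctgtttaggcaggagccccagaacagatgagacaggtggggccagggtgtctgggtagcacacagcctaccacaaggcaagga

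GC content was 74% in the Col4a1 window and 73.7% in that of Col4a2, against 55.3% for Sparc and a median of 52.7% over 32851 windows of 300 bases. Short motifs were searched on both strands. GATAA, a core recognised by GATA factors, was in none of these 3 windows and in 25.4% of all windows. CCAAT occurred 1 time in each collagen window, not in that of Sparc, and in 37.4% of all windows. GGGCGG, the GC box, occurred 1 time in the Col4a1 window, 3 times in the Col4a2 window, not in that of Sparc, and in 35.7% of all windows. Within a window no match overlapped another. The GC box of Col4a1 and 1 of the 3 of Col4a2 are the same bases, within the stretch that both windows hold. Among the other genes with a window, Dab2 had 2 GATAA matches in 1 of its 2 windows, and Foxa2 had 1 match in 1 of its 3. Windows for Gata4, Gata6, Sox17, Lama1 and Lamc1 were not used here.

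Both collagen IV chains were higher than in wild type in the groups that lack Lin28a. Col4a1 levels were 8.49, 8.12 and 7.97 in double loss, 8.09, 8.03 and 8.41 in Lin28a loss, 7.93, 7.32 and 7.54 in Lin28b loss, and 7.46, 6.92 and 6.62 in wild type. Double loss and Lin28a loss were above all wild-type arrays, while Lin28b loss overlapped wild type. Col4a1 rose by 1.18 ± 0.21 in Lin28a loss (2.26-fold, adjusted p = 0.000927) and by 1.19 ± 0.21 in double loss (2.29-fold, 0.000828) against wild type, calls that median scaling ended (1.20 and 1.03, adjusted p 0.0534 and 0.0835). The groups double loss and Lin28a loss differed by 0.02 (95% interval -0.45 to 0.48, adjusted p = 0.959).

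Lin28b loss alone left Col4a1 between wild type and the groups without Lin28a. The gene was 0.60 ± 0.21 higher than in wild type (adjusted p = 0.0450), double loss was 0.60 ± 0.21 higher than Lin28b loss (0.0449), and Lin28a loss was 0.58 ± 0.21 higher than Lin28b loss (0.0360). These 3 calls were also lost under median scaling (adjusted p 0.533, 0.279 and 0.107) and without the filter on dim genes (0.132, 0.132 and 0.106), and when some single arrays were left out. With an offset of 50, and with only the arrays compared, the first was lost as well. The first did not hold without replicate 2 of double loss, 1 or 2 of Lin28a loss, 1 or 3 of Lin28b loss, or 2 or 3 of wild type (0.41 to 0.62, adjusted p 0.0543 to 0.180). The next did not hold without replicate 1 or 2 of double loss, 1 or 2 of Lin28a loss, 2 or 3 of Lin28b loss, or 2 of wild type (0.45 to 0.63, adjusted p 0.0546 to 0.168). The last did not hold without replicate 1 or 3 of Lin28a loss, or 2 or 3 of Lin28b loss (0.44 to 0.63, adjusted p 0.0584 to 0.142).

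Col4a2 levels were 7.68, 7.71 and 7.60 in double loss, 8.13, 8.17 and 7.83 in Lin28a loss, 7.44, 7.07 and 7.12 in Lin28b loss, and 7.25, 6.49 and 6.79 in wild type. Lin28a loss was highest on every array, double loss next, and Lin28b loss overlapped wild type. Col4a2 rose by 1.20 ± 0.17 in Lin28a loss (2.30-fold, adjusted p = 0.000148) and by 0.82 ± 0.17 in double loss (1.76-fold, 0.00229) against wild type, the double-loss call ending under median scaling (0.64, adjusted p = 0.158). In Lin28b loss it was 0.37 ± 0.17 above wild type (adjusted p = 0.112), which passed without wild type replicate 1 (0.57, adjusted p = 0.00948) and with array weights. Lin28a loss stood 0.84 ± 0.17 above Lin28b loss (adjusted p = 0.00121).

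The remaining Col4a2 contrasts lay close to the threshold. Double loss was 0.45 ± 0.17 above Lin28b loss (adjusted p = 0.0538) and passed without replicate 3 of Lin28a loss, 1 of Lin28b loss, or 1 or 2 of wild type (0.45 to 0.57, adjusted p 0.0144 to 0.0446). Double loss minus Lin28a loss was -0.38 ± 0.17 (adjusted p = 0.0741), which passed without replicate 3 of Lin28a loss, or 1 or 2 of wild type (-0.49 to -0.38, adjusted p 0.0222 to 0.0418). Both contrasts also passed with array weights, with the replicate number as a block, and with only the arrays compared. The contrast with Lin28b loss passed with an offset of 50 and with no background correction too. Wild type replicate 1, the brightest of its group, was the highest wild-type array for both chains, by 0.68 for Col4a1 and 0.61 for Col4a2 over the mean of the other 2.

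With chip as a block, Lin28a loss raised both chains, Col4a1 by 0.89 ± 0.17 (adjusted p = 0.00368) and Col4a2 by 0.83 ± 0.16 (0.00365). They were the 2 of 5 genes that rose in this comparison, where 10.6% of tested genes rose and 11.5% fell (22.1% in either direction). The Col4a1 value did not pass under median scaling (0.94, adjusted p = 0.0514). The effect with Lin28b lost minus that with Lin28b intact was -0.75 ± 0.24 for Col4a2 (adjusted p = 0.0263) and -0.58 ± 0.30 for Col4a1 (0.151). The Col4a2 difference did not pass without the filter on dim genes (adjusted p = 0.0755). Without wild type replicate 1 the Col4a1 difference was -0.81 (adjusted p = 0.0301). That of Col4a2 missed the threshold without replicate 3 of double loss, 1 or 2 of Lin28a loss, 1 of Lin28b loss, or 2 or 3 of wild type (-0.72 to -0.57, adjusted p 0.0553 to 0.0726).

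The 2 laminin chains parted. Lama1, the alpha chain of embryonic laminin, had levels of 10.09, 10.53 and 10.38 in double loss, 10.20, 10.45 and 10.08 in Lin28a loss, 10.31, 10.29 and 10.22 in Lin28b loss, and 9.89, 10.36 and 10.41 in wild type. All 4 groups overlapped. The differences from wild type were 0.02 in Lin28a loss (95% interval -0.31 to 0.35), 0.05 in Lin28b loss (-0.28 to 0.38) and 0.11 in double loss (-0.22 to 0.44). No comparison of Lama1 passed the threshold in any of the alternatives.

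Lamc1, the gamma chain shared by most laminins, was highest in Lin28b loss. Its levels were 11.01, 10.89 and 10.91 in double loss, 11.03, 11.07 and 10.83 in Lin28a loss, 11.50, 11.55 and 11.63 in Lin28b loss, and 10.70, 10.67 and 10.74 in wild type. Lin28b loss lay above every other array, and wild type lay below every other array. Lamc1 rose by 0.85 ± 0.09 in Lin28b loss (1.81-fold, adjusted p = 1.04e-05) and by 0.27 ± 0.09 in Lin28a loss (1.21-fold, 0.0277) against wild type. In double loss it was 0.23 ± 0.09 above wild type (adjusted p = 0.0546). The Lin28a-loss call did not hold without wild type replicate 2 or 3 or Lin28a loss replicate 1 or 2 (0.22 to 0.29, adjusted p 0.0507 to 0.103). With only the arrays compared that call was lost as well. The double-loss difference passed without Lin28a loss replicate 3 (0.23, adjusted p = 0.0313). It also passed with cyclic loess, an offset of 50, no background correction, no filter on dim genes, and array weights.

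Lamc1, like Sparc, had effects of opposite sign on the 2 chips. Lin28a loss raised it by 0.27 with Lin28b intact and it fell by 0.62 ± 0.09 with Lin28b lost (adjusted p = 0.000139), a difference of -0.89 ± 0.12 (0.000129). Double loss and Lin28a loss did not differ beyond their error (-0.04, 95% interval -0.23 to 0.15, adjusted p = 0.731). Lin28a loss minus Lin28b loss was -0.58 ± 0.09 (adjusted p = 0.000114). Of these Lamc1 differences none passed under median scaling (-0.63 for the difference between effects, adjusted p = 0.150, and 0.53 for Lin28b loss against wild type, 0.0767).

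**Figure D2:**
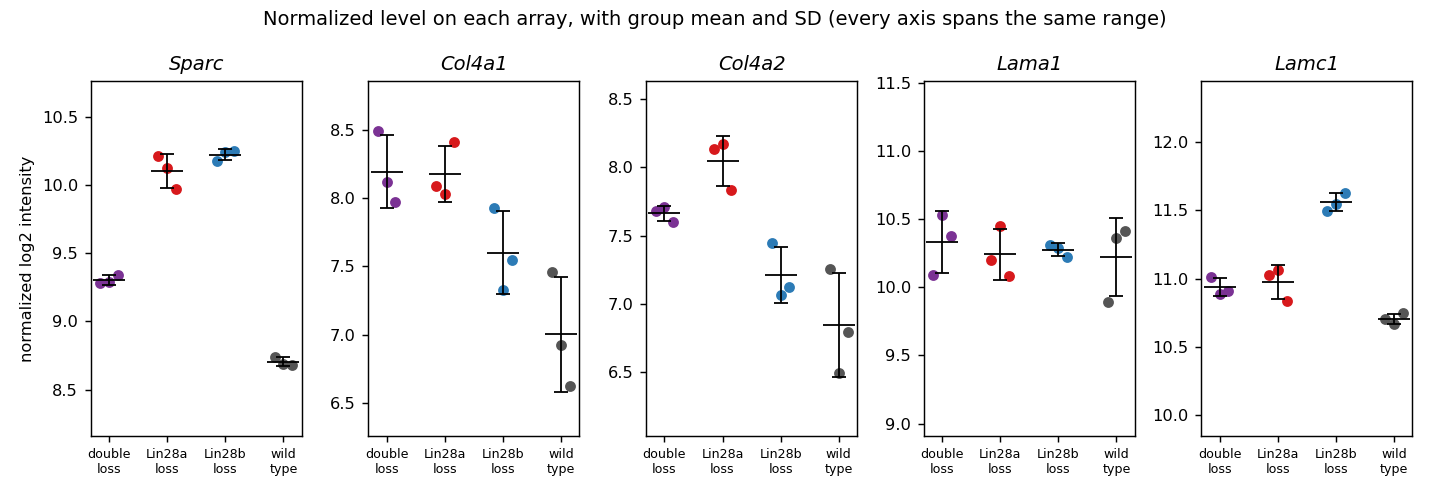
Normalized log2 intensity of the 5 tested genes on each array (points), with group mean and SD (bars), from left to right in double loss, Lin28a loss, Lin28b loss and wild type; all 5 axes span the same range. Sparc is lowest in wild type and highest in the single losses, the collagen IV chains are highest where Lin28a was lost, Lamc1 is highest in Lin28b loss, and Lama1 overlaps in all groups.

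The effect of Lin28a loss thus differed with the state of Lin28b for 3 of the 5 genes, Sparc, Col4a2 and Lamc1, each with a lower effect where Lin28b was lost (20.3% of tested genes were lower in this comparison, 17.5% higher and 37.8% either), and under median scaling for Sparc alone. Double loss against Lin28b loss gave 1 rise (Col4a1; 16.9% of tested genes rose) and 2 falls (Sparc and Lamc1; 19.7% fell, and 36.6% passed in either direction). Lin28a loss against Lin28b loss gave 2 rises (both collagen chains; 25.4% rose) and 1 fall (Lamc1; 28.1% fell, and 53.5% passed in either direction). The order of levels differed between the genes. It ran Lin28b loss, Lin28a loss, double loss, wild type for Sparc, and double loss, Lin28a loss, Lin28b loss, wild type for Col4a1. For Col4a2 it was Lin28a loss, double loss, Lin28b loss, wild type, and for Lamc1 Lin28b loss, Lin28a loss, double loss, wild type. In the main fit, neighbours that did not differ past the threshold were the single losses for Sparc, and double loss and Lin28a loss for Col4a1. So were every neighbouring pair for Col4a2, and for Lamc1 Lin28a loss and double loss, and double loss and wild type. The Col4a2 pairs and the last Lamc1 pair passed under some alternatives.

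**Figure D3:**
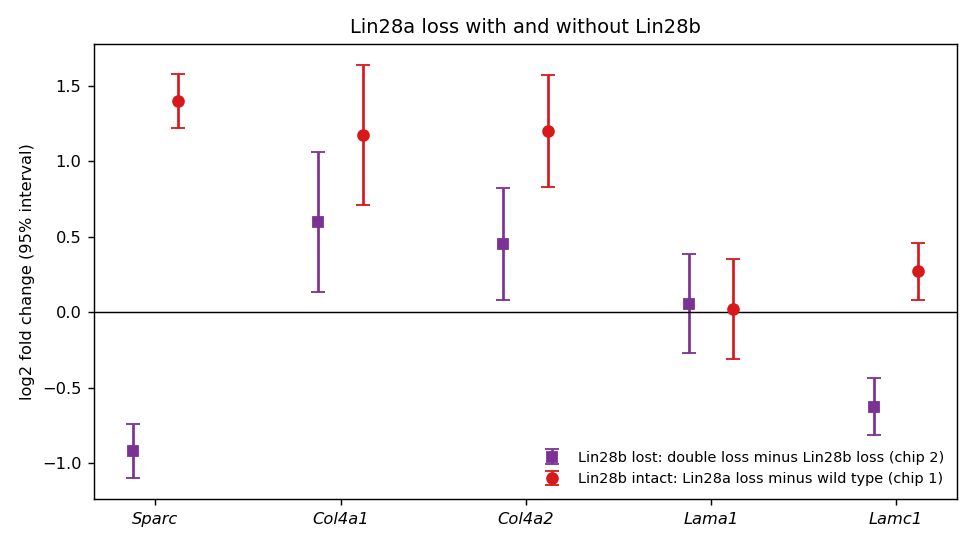
Log2 change on Lin28a loss (points) with its 95% interval (bars) for the 5 tested genes, where Lin28b was lost (squares, double loss minus Lin28b loss) and where it was intact (circles, Lin28a loss minus wild type). The 2 effects have opposite signs for Sparc (-0.92 and 1.40) and Lamc1 (-0.62 and 0.27), and the same sign for both collagen IV chains.

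For the 3 genes whose group means spanned over 1 on the log2 scale, the nearest genes were found by the root mean square difference of centred log2 levels over the 12 arrays. For Sparc they were Flrt1, a leucine-rich repeat membrane protein (0.15), Cyp7b1, an oxysterol hydroxylase (0.20), and H6pd, a pentose-phosphate enzyme of the endoplasmic reticulum (0.21). Col4a1 was nearest to the kinase Dclk2 (0.19), the NKG2D ligand Raet1b (0.24) and the Na,K-ATPase regulator Fxyd6 (0.24), and Col4a2 to Rassf4 (0.17), the kallikrein Klk13 (0.20) and Tmco4 (0.20). Neither collagen chain was among the 3 nearest genes of the other.

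The other basement membrane genes did not move as one block. Of 23 listed genes 12 were tested. Against wild type none rose and 5 fell in Lin28a loss (18.3% and 18.4% of all tested genes), 6 rose and 2 fell in Lin28b loss (18.9% and 17.2%), and 2 rose and 4 fell in double loss (18% and 19.1%), with medians of -0.10, 0.28 and -0.02. Median scaling left 1 fall in Lin28a loss, 1 rise and 2 falls in Lin28b loss, and 1 rise and 3 falls in double loss, and the Lin28b-loss median turned to -0.02. Nid1, the nidogen that bridges laminin and collagen IV, rose by 1.62 ± 0.13 in Lin28b loss (adjusted p = 9.02e-07) and by 1.28 ± 0.13 in double loss (6.25e-06). Its paralog Nid2 rose by 0.83 ± 0.11 in Lin28b loss (adjusted p = 9.13e-05). In Lin28a loss the falls included Fn1 (fibronectin, -0.77 ± 0.13), Col18a1 (-0.56 ± 0.08) and Agrn (agrin, -0.50 ± 0.12).

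Partner laminin chains moved in both directions. Lamb1, the usual beta partner of Lama1 and Lamc1, was above background on no array. Lama3, the alpha chain of epithelial laminin, fell by 2.56 ± 0.12 in Lin28b loss (adjusted p = 5.88e-09) and by 1.27 ± 0.12 in double loss (3.39e-06), and Lamb3 fell by 1.01 ± 0.15 in double loss (0.000220). Between double loss and Lin28b loss, 9 of the 12 genes fell, among them Lamb2 by 0.94 ± 0.15 and Lamb3 by 0.91 ± 0.15, and 1 rose (Lama3, 1.29 ± 0.12). Of all tested genes 19.7% fell and 16.9% rose in this comparison. The median of the list there was -0.37, against -0.01 over all tested genes. Under median scaling 2 genes fell and 1 rose, and under cyclic loess 6 fell and 1 rose.

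Genes that fold and modify collagen moved mostly upward in Lin28b loss. Of 14 listed genes 11 were tested. Against wild type there were 7 rises and 1 fall in Lin28b loss (18.9% and 17.2% of all tested genes). Lin28a loss gave 3 rises and no fall (18.3% and 18.4%), and double loss 3 rises and 1 fall (18% and 19.1%). The medians were 0.61, 0.18 and 0.30. Median scaling left 1 rise and 1 fall in Lin28b loss (median 0.35), 1 rise in Lin28a loss, and 1 fall with no rise in double loss. Without the 3 brightest arrays there were 8 rises and 1 fall in Lin28b loss, 6 rises in Lin28a loss, and 7 rises and 1 fall in double loss. The shares of all tested genes without these arrays are not given here, so these counts cannot be set against them. P4ha2, a prolyl hydroxylase subunit, rose by 0.96 ± 0.19 (adjusted p = 0.00197) and Plod3, a lysyl hydroxylase, by 0.76 ± 0.13 (0.000548) in Lin28b loss. Serpinh1, the collagen chaperone HSP47, went the other way there, with means of 8.13 ± 0.15 in double loss, 10.26 ± 0.09 in Lin28a loss, 8.98 ± 0.06 in Lin28b loss, against 9.67 ± 0.07 in wild type (SD, n = 3 each). It rose by 0.58 ± 0.09 on Lin28a loss with Lin28b intact and fell by 0.86 ± 0.09 with Lin28b lost, a difference of -1.44 ± 0.13 (adjusted p = 5.14e-06).

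Receptors for laminin, collagen and other matrix proteins showed lower effects of Lin28a loss where Lin28b was lost. Of 11 listed genes 8 were tested, and 6 had a lower effect there and none a higher one. Of all tested genes 20.3% had a lower effect and 17.5% a higher one. The median difference of the list was -0.66 (2 lower under median scaling, median -0.64, and 7 lower without the 3 brightest arrays). Without those arrays 7 of the 8 in place of 4 rose in Lin28b loss against wild type, and 8 in place of 4 fell in double loss against Lin28b loss. With all arrays, 18.9% of all tested genes rose in the former comparison and 19.7% fell in the latter. Shares without the 3 brightest arrays are not given here, so no count without them can be set against all tested genes. Itgb4, the integrin beta chain of hemidesmosomes, rose by 0.45 ± 0.09 with Lin28b intact and fell by 0.99 ± 0.09 with Lin28b lost (difference -1.45 ± 0.13, adjusted p = 3.04e-06). Itga3, an integrin alpha chain for laminin, rose by 1.48 ± 0.29 in Lin28a loss against wild type (adjusted p = 0.00147), with a difference of -1.81 ± 0.41 (0.00381). Among the collagen maturation genes, 5 of 11 had a lower effect and none a higher one (1 lower under median scaling, 8 without the 3 brightest arrays). Of the other basement membrane genes 4 had a lower and 2 a higher effect, beside 1 and 1 under median scaling and 7 and 2 of 13 tested without the 3 brightest arrays. Under median scaling the rises of Nid2 and Plod3 in Lin28b loss and of Itga3 and Itgb4 in Lin28a loss, and the falls of Fn1 and Col18a1 in Lin28a loss, kept their direction but not the call (adjusted p 0.0504 for Plod3 to 0.194 for Itgb4).

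**Figure D4:**
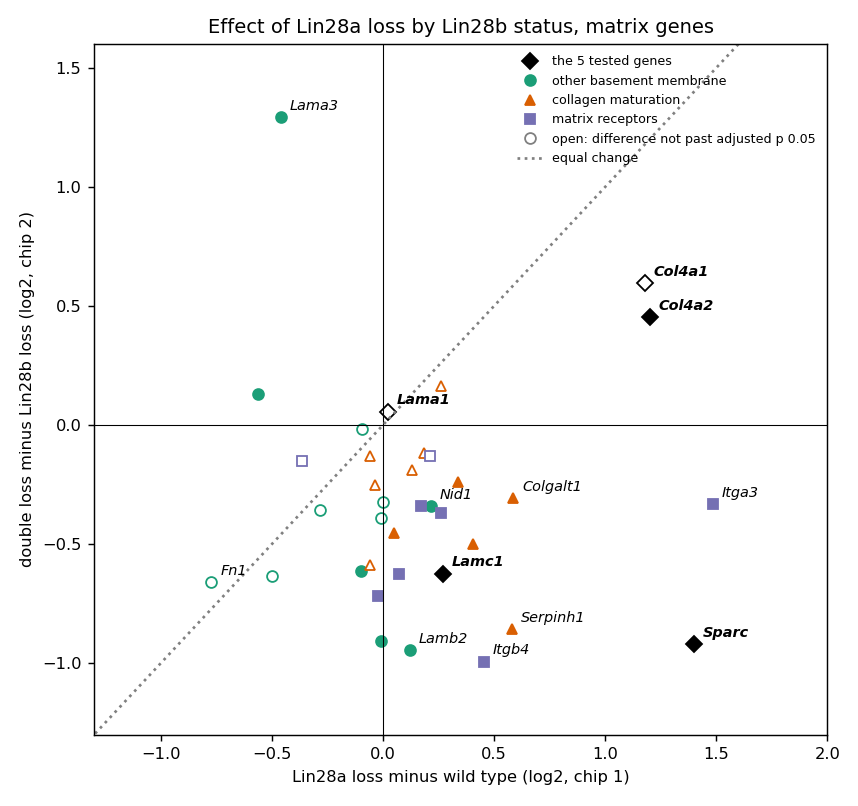
Log2 change on Lin28a loss where Lin28b was lost (vertical axis) against the change where it was intact (horizontal axis) for the 5 tested genes (diamonds) and the tested genes of 3 matrix lists; filled points passed the threshold for the difference between both effects. Sparc, Lamc1, Serpinh1 and Itgb4 lie at lower right (higher with Lin28b intact, lower with it lost), and Lama3 lies at upper left.

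Endoderm genes outside the 10 were partly above background. Of 10 further endoderm regulators 3 were tested and 5 were above background on no array, while Hnf4a and Hhex were above it on all 12. Of 7 parietal endoderm markers 1 (Fst) was tested. Of 8 definitive endoderm genes 5 were tested, Gsc and Hhex above background on all 12 arrays, and 3 (Cer1, Mixl1 and Foxa1) were above it on none. Against wild type, 3 of these 5 fell in Lin28a loss (18.4% of all tested genes fell). In Lin28b loss 2 rose and 2 fell (18.9% and 17.2%), and in double loss 1 rose and 1 fell (18% and 19.1%). Median scaling left 1 fall in Lin28a loss, 1 rise and 1 fall in Lin28b loss, and 1 fall in double loss. Of 11 visceral endoderm genes 4 were tested and 7 were above background on no array, Afp among them. Amn, amnionless, the partner of the receptor cubilin, rose by 1.86 ± 0.20 in Lin28a loss (adjusted p = 1.26e-05) and fell by 0.87 ± 0.20 in Lin28b loss (0.00404), and Trf (transferrin) rose by 0.56 ± 0.12 and fell by 1.37 ± 0.12 in the same groups. All 4 visceral endoderm genes fell in Lin28b loss, where 17.2% of tested genes fell, and under median scaling too. In double loss 2 fell and none rose, where 19.1% of tested genes fell. In Lin28a loss 2 rose and none fell (1 rise under median scaling), where 18.3% of tested genes rose. Against Lin28b loss 3 rose in double loss, where 16.9% of tested genes rose. Gata2, a relative of Gata4 and Gata6 known mainly from blood and trophoblast, had means of 6.81 ± 0.29 in double loss, 9.54 ± 0.35 in Lin28a loss, 6.43 ± 0.15 in Lin28b loss, against 7.94 ± 0.45 in wild type (SD, n = 3 each).

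Fibroblast markers, which share the collagen program, moved with part of these results. Of 15 listed genes, 11 (Col1a1 and Col1a2 among them) were above background on no array and 3 or 4 were above it per array. Their summed level was 913 to 1006 in double loss, 875 to 1028 in Lin28a loss, 708 to 910 in Lin28b loss and 577 to 674 in wild type. Col5a1, a fibrillar collagen chain, rose by 0.85 ± 0.12 in double loss, 0.89 ± 0.12 in Lin28a loss and 0.89 ± 0.12 in Lin28b loss, whereas Acta2 (smooth muscle actin) fell by 2.00 ± 0.14 in Lin28a loss and rose by 0.88 ± 0.14 in double loss (adjusted p = 0.000259). Of the 4 tested, 3 rose in double loss (18% of all tested genes rose) and 1 rose in Lin28b loss (18.9%). In Lin28a loss 2 rose and 2 fell (18.3% and 18.4%).

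Endothelial cells also make collagen IV and Sparc. Of 6 endothelial markers, 2 (Tek and Vwf) were above background on every array and 4 on none. The table held a second entry named Vwf, which was above background on no array. Their summed level was 304 to 361 in double loss, 512 to 572 in Lin28a loss, 186 to 219 in Lin28b loss and 421 to 454 in wild type. Both rose in Lin28a loss against wild type, Tek, a vascular receptor kinase, by 0.45 ± 0.11 (adjusted p = 0.00697) and Vwf, the clotting protein von Willebrand factor, by 0.29 ± 0.09 (0.0224), calls that median scaling ended. With chip as a block both rose too, as did both collagen IV chains and 10.6% of all tested genes. In Lin28b loss Vwf fell, with means of 6.41 ± 0.08 in Lin28b loss against 8.31 ± 0.08 in wild type (SD, n = 3 each, adjusted p = 1.05e-08), while Sparc and Lamc1 rose. The part of fibroblasts and of endothelial cells in the rises of Sparc and collagen IV was not tested.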

How the data were processed

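RNA of 12 samples in 4 groups of 3 was read on Illumina Mouse WG-6 BeadChips. Per the file headers, the authors exported intensity and detection p-value columns as a gene-level profile with normalization set to none (GSGX 1.9.0). GenomeStudio is named in the submitters' processing notes. Here limma 3.58.1 in R 4.3.3 corrected the deposited intensity by normexp, with the negative controls inferred from detection p-values (offset 16), took log2 and applied quantile normalization. A gene was kept where some group had a detection p under 0.01 on each of its 3 arrays, and the brightest entry of a gene was kept, leaving 9920 genes. One linear model over all 12 arrays gave 8 comparisons, with Benjamini-Hochberg adjustment over all tested genes and 95% intervals from the moderated t. The planned test was written for probes, and the table holds genes. The script was tested on simulated data. The number of arrays limits the precision. Of other per-sample columns, 72 were not used. Promoter windows come from RefSeq (GRCm38.p6), with symbols updated through RefSeq.

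The 10 genes and the gene lists were chosen with earlier results of these data known. From each list, up to 3 genes per comparison past the threshold with the largest change were named. Alternatives were other scalings, background corrections, filters and fits, and leaving out each array.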

Additional observations from a re-analysis of the deposited data

Results flagged for a closer look

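For 3 genes the effect of Lin28a loss differed with and without Lin28b, tested by the interaction term of the fit (limma, Benjamini-Hochberg adjusted p). The difference was -2.32 ± 0.12 for Sparc (adjusted p = 2.30e-08), -0.89 ± 0.12 for Lamc1 (0.000129) and -0.75 ± 0.24 for Col4a2 (0.0263), on the log2 scale. Of all tested genes 37.8% passed this test, 20.3% with a lower effect. Under median scaling Sparc alone passed (-0.63, adjusted p = 0.150 for Lamc1, and -0.72, 0.278 for Col4a2). The Col4a2 call was lost in 6 of the 12 fits that left out 1 array, those without array 3 of double loss, 1 or 2 of Lin28a loss, 1 of Lin28b loss, or 2 or 3 of wild type (-0.72 to -0.57, adjusted p 0.0553 to 0.0726). Sparc and Lamc1 fell on Lin28a loss where Lin28b was lost (-0.92 and -0.62) and rose where it was intact (1.40 and 0.27). Col4a2 had a positive change in both settings, 0.45 where Lin28b was lost and 1.20 where it was intact. Each of these effects lies within a chip, but each genotype is 1 line.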

How the results depend on the processing

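The alternatives for single genes among the 10 were counted apart from leaving out single arrays. Of these, 388 kept direction and call, 20 gained a call (4 of them without the 3 brightest arrays), 21 lost one and 1 turned round. That one was Sparc with chip as a block, -0.64 under array weights (adjusted p = 0.0239). Scaling arrays to a common median moved most: of the 5 tested genes it called, against wild type, 0 in double loss (3 at an unadjusted p under 0.05 by limma), 2 in Lin28a loss and 1 in Lin28b loss, then, 1 in double loss against Lin28b loss, 1 in Lin28a loss against Lin28b loss, 1 with chip as a block and 1 for the interaction. It moved the median of all genes by -0.23 in Lin28b loss and -0.14 in double loss against wild type, -0.15 in double loss against Lin28a loss and 0.24 in Lin28a loss against Lin28b loss. Its calls over all genes were 1401 (982 higher, 419 lower; 3645 with quantile normalization, 1817 higher) in Lin28a loss, 1804 (380 higher, 1424 lower; 3585, 1877 higher) in Lin28b loss and 1725 (444 higher, 1281 lower; 3676, 1781 higher) in double loss against wild type. For double loss they were 1210 (3632) against Lin28b loss and 3210 (811 higher, 2399 lower; 5355, 2623 higher) against Lin28a loss. They were 3228 (2562 higher, 666 lower; 5306, 2519 higher) for Lin28a loss against Lin28b loss, 788 (550 higher, 238 lower; 2188) with chip as a block and 1465 (3750) for the interaction. The cause was not tested.

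Array weights raised the calls over all genes to 5678 in Lin28b loss and 5755 in double loss against wild type, 5744 in double loss against Lin28b loss and 4999 with chip as a block, where 4 of 5 genes passed. Without the filter on dim genes 5 of the 10 passed in double loss against wild type, Dab2 among them. Double loss against Lin28a loss gave 2 in place of 1 without that filter, at a detection p under 0.05, with array weights, with only the arrays compared, and without the 3 brightest arrays (chosen after seeing the data), and 1 to 2 when single arrays were left out. The added gene was Dab2 in the first 2 of these settings and Col4a2 in the others. At a detection p under 0.01 Dab2 passed on no array of either group. At a detection p under 0.05 it passed on 2 of 3 arrays in double loss and 3 of 3 in Lin28a loss. Replicate numbers did not pair the samples: correlations of same-numbered deviations ran from -0.57 to 0.69, 9 of 18 over 0.1, and 5 of 12 arrays correlated best with their own number. With the replicate number as a block, 2 of the 5 genes passed in double loss against Lin28a loss, Col4a2 being the added one, and 4 against Lin28b loss, and 3732 genes passed in Lin28a loss against wild type. The authors' normalized table was not used as an alternative, because no file here ties its rows to genes and its columns to samples.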
